A study of Mus musculus with 10 samples.

Results

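Laminin chains and the integrin subunits that bind them were followed through mouse lower incisor development. The 9 genes, taken by name from the 32285 genes of the count matrices, were the laminin alpha chains Lama1, Lama4 and Lama5, the beta chains Lamb1 and Lamb3, the gamma chain Lamc1, the integrin alpha subunit Itga6 and the integrin beta subunits Itgb1 and Itgb4. They were described in single cells of wild type NMRI embryos. The tissue was whole mandible at E11.5 and dissected lower incisor bud at E14.5 and E16.5, although the labels name the developing incisor at all stages. The labels list 4, 4 and 2 samples, the barcodes carry no mark of their sample, and each stage was therefore handled as 1 sample, so that stage, tissue piece and library cannot be told apart and no p-value was computed.

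Laminins are trimers of an alpha, a beta and a gamma chain that polymerise into the basement membrane, the sheet of matrix on which epithelia rest and which wraps vessels, nerves and muscle. The alpha chain sets which receptors a trimer can bind, and the trimer that holds Lamb3 lies in the anchoring zone of stratified epithelia. Itga6 pairs with Itgb1 in many cells and with Itgb4 in hemidesmosomes, which tie the basement membrane to the keratin network of epithelial cells.

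Counts are UMIs (unique molecular identifiers, each standing for 1 captured RNA molecule). Barcodes under 700 genes or over 20% mitochondrial UMIs were dropped, which left 6573, 6091 and 4511 cells at the successive stages with a median of 5664, 3471 and 6260 UMIs. A cell was called epithelial, mesenchymal, endothelial or of another lineage when at least 3 of the 12 markers of that lineage had a UMI and no other lineage had more than 1 for every 2 of them. None of the 9 genes was a marker. Epithelium held 643 cells (E14.5) and 1441 cells (E16.5), mesenchyme 5172, 3780 and 2327 cells, and endothelium 68, 158 and 116 cells, while only 10 cells were called epithelial at E11.5. The stages shared between 13 and 17 barcodes. The 10 leading genes of each of these groups held between 3 and 7 of its own markers and none of another lineage. The epithelial markers summed to 1980 and 2453 CPM (counts per 1000000 UMIs of the group) in epithelium, against 7.32, 55.8 and 118 CPM in mesenchyme. Cells were called by these same markers, so these values describe the groups and do not test the calls. Levels below are CPM of summed UMIs with exact Poisson intervals at the 95% level, which cover counting error only. A 3' UMI counts a molecule whatever its length, so levels were not divided by gene length, and capture may still differ between genes.

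In GRCm38 (GENCODE vM21) the 9 genes lie at chr17:67697259-67822647 (Lama1), chr10:38965515-39110188 (Lama4), chr2:180176373-180225859 (Lama5), chr12:31265234-31329644 (Lamb1), chr1:193207699-193343878 (Lamb3), chr1:153218922-153332786 (Lamc1), chr2:71745616-71858416 (Itga6), chr8:128685654-128733200 (Itgb1) and chr11:115974709-116008412 (Itgb4). Promoter sequence was at hand for 4 of the 9 genes, and all 4 are shown (RefSeq, GRCm38.p6, 250 bases before to 50 bases after an annotated start, written 5′ to 3′ on the strand of the gene). They pair genes whose UMIs were concentrated in epithelium (Lama5 and Lamb3) with genes found in epithelium, mesenchyme and endothelium (Lamb1 and Itgb1). The windows are chr2:180225810-180226109 on the minus strand for Lama5, chr1:193301744-193302043 and chr1:193301993-193302292 on the plus strand for the pair of Lamb3 starts, whose windows overlap, chr12:31265043-31265342 on the plus strand for Lamb1 and chr8:128685404-128685703 on the plus strand for Itgb1. Both Lamb3 windows lie inside the gene span given above, whose 5′ end on the plus strand is at chr1:193207699. No window was at hand for that end. Capitals mark matches, on either strand, to the GC box GGGCGG or to the E-box CACCTG.
Lama5: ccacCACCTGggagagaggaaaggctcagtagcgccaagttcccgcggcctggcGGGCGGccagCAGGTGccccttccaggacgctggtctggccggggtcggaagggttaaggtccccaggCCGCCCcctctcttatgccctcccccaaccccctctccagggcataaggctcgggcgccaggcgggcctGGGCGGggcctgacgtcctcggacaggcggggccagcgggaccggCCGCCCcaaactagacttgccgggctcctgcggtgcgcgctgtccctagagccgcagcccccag
Lamb3, upstream start: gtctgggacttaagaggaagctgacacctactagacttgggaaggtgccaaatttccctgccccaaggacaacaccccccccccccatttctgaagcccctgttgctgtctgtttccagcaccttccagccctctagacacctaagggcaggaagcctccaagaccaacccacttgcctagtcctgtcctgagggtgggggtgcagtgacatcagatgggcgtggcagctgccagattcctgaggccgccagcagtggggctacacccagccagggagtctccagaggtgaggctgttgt
Lamb3, downstream start: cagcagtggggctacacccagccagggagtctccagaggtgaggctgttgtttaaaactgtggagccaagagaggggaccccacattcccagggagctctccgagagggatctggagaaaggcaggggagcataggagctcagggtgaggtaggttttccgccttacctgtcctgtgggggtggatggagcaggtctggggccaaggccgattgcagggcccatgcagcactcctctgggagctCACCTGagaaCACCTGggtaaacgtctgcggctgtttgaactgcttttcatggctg
Lamb1: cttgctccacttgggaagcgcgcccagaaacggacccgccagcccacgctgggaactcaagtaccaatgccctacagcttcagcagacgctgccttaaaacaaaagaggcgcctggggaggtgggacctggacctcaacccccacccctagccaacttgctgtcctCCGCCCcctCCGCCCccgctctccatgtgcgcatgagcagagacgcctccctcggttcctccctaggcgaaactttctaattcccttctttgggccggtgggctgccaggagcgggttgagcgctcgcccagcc
Itgb1: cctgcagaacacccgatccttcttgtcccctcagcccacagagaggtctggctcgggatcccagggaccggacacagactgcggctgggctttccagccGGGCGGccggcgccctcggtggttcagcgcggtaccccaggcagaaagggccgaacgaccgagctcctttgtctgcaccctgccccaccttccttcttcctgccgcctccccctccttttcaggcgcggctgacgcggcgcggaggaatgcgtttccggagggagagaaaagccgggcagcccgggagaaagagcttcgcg
The GC box had 4 matches in the Lama5 window, 2 in Lamb1, 1 in Itgb1 and none in the Lamb3 windows, and 35.7% of all 32851 windows held at least 1. The E-box had 2 matches in Lama5 and 2 at the downstream Lamb3 start, against a share of 20.2% of all windows. The letters TATAAA and TGANTCA, found in 13.6% and 7.81% of all windows, were in none of the 5, and no matches overlapped. CG dinucleotides numbered 24 in Lama5, 18 in Lamb1 and 27 in Itgb1, but 2 and 5 in the Lamb3 windows, where the median window held 7. In GC boxes and CG dinucleotides the Lama5 window was thus nearer to those of Lamb1 and Itgb1 than to those of Lamb3.

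Among groups of at least 50 cells, levels followed 3 patterns. Lama5, Lamb3 and Itgb4 lay between 27.2 and 66.0 CPM in epithelium and at or below 1.44 CPM in mesenchyme. Lama4, Lamb1, Lamc1, Itga6 and Itgb1 were each highest in endothelium of E16.5. Lama1 did not pass 21.4 CPM in any group and was highest in mesenchyme.

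**Figure D1:**
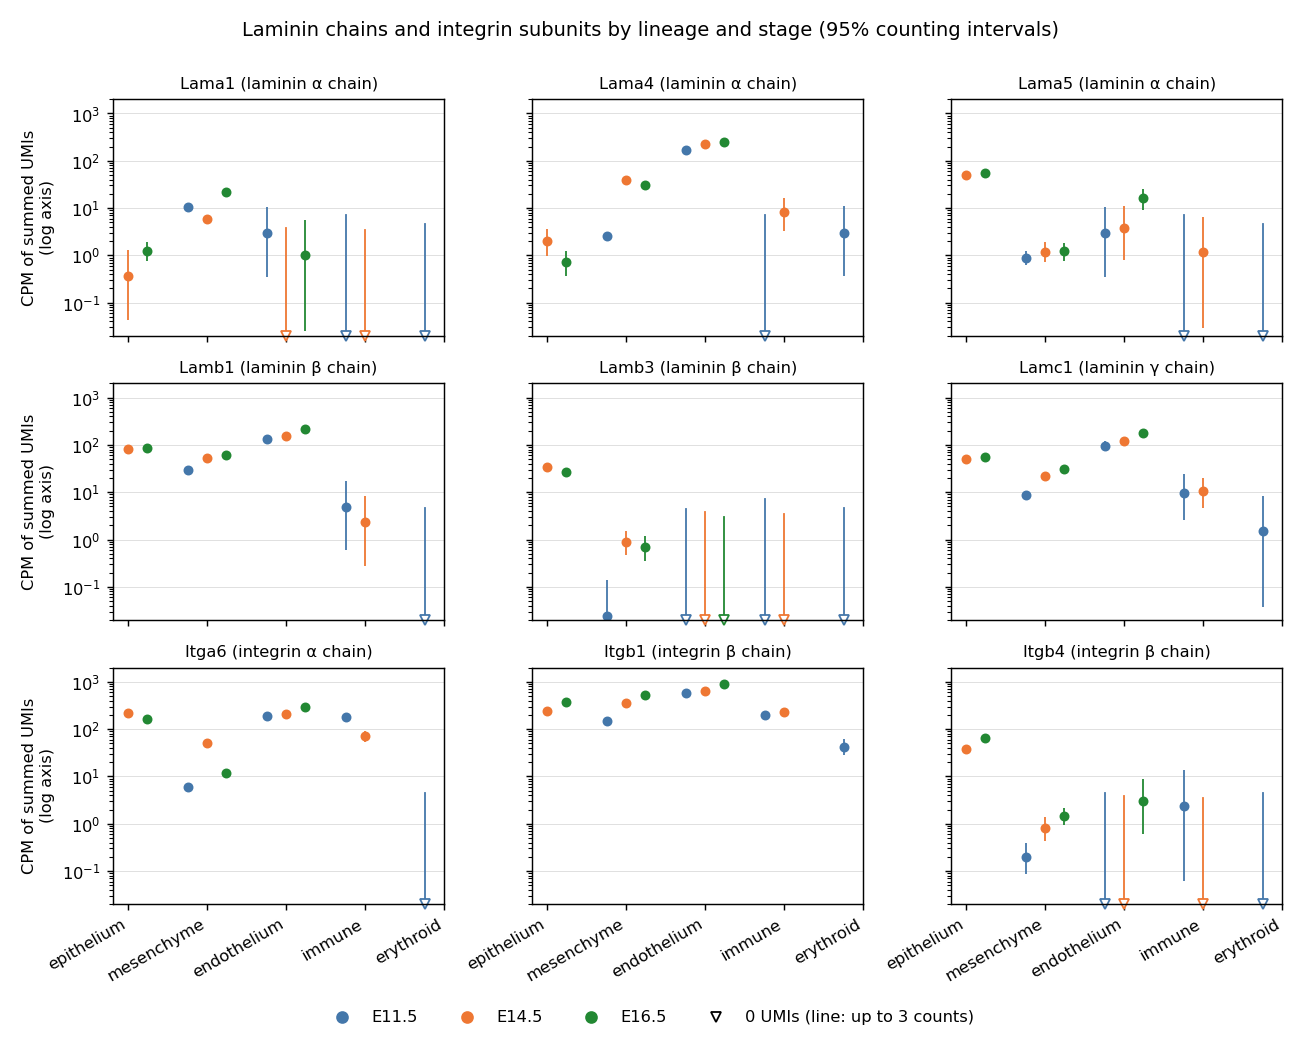
CPM of each laminin chain and integrin subunit (vertical, log axis) in cells called epithelial, mesenchymal, endothelial, immune or erythroid (horizontal), with points coloured by stage, bars for the 95% Poisson interval and open triangles for groups with 0 UMIs, whose line reaches the level of 3 counts. Lama5, Lamb3 and Itgb4 stand out in epithelium, and Lama4 reaches 255 CPM in endothelium at E16.5.

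Lama5, the main laminin alpha chain of developing epithelia, was at 48.9 CPM (interval 43.3 to 55.1) in E14.5 epithelium and 54.7 CPM (51.2 to 58.3) in E16.5 epithelium. Its level in mesenchyme was 0.881, 1.20 and 1.21 CPM at the 3 stages in turn, and its level in endothelium 2.94, 3.86 and 15.95 CPM. Among called groups of at least 50 cells the epithelial values lay above all others, and the next was the endothelium of E16.5, with 16 UMIs. Cells of E16.5 that met no lineage rule lay between these, at 31.4 CPM (26.3 to 37.1). At E16.5 34.6% of epithelial cells had a Lama5 UMI (median depth 7571 UMIs) and 0.902% of mesenchymal cells (median depth 6103 UMIs), a share at which free RNA cannot be told from expression.

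Lamb3, the beta chain of anchoring laminin, was at 34.9 CPM (30.2 to 40.2) in E14.5 epithelium and 27.2 CPM (24.8 to 29.8) in E16.5 epithelium. It was at 0.0245, 0.883 and 0.693 CPM in mesenchyme, and no UMI was found in endothelium at any stage, where 3 counts would be 4.41, 3.86 and 2.99 CPM. It was the 1 member without a UMI in endothelium at all 3 stages.

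Itgb4, the hemidesmosomal subunit, was at 37.4 CPM (32.5 to 42.9) in E14.5 epithelium and 66.0 CPM (62.2 to 70.0) in E16.5 epithelium. Mesenchyme had 0.196, 0.820 and 1.44 CPM, and endothelium had 0 UMIs at E11.5 and E14.5 and 3 at E16.5. In epithelium 23.2% and 40.3% of cells had an Itgb4 UMI, and 6.57% and 13.6% after thinning every cell to 2000 UMIs. In mesenchyme these shares were 0.344% and 1.07% (median depths of 3612 and 6103 UMIs against 5528 and 7571 in epithelium), and 0.147% and 0.261% after thinning.

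Itga6, the laminin-binding alpha subunit, was found well beyond epithelium. It was at 218 CPM (206 to 230) and 161 CPM (155 to 167) in epithelium of the later stages, and at 185, 207 and 301 CPM in endothelium. Immune cells had 177 CPM (139 to 222) at E11.5 and 70.4 CPM at E14.5, and erythroid cells of E11.5 had no UMI in 108 cells, where 3 counts would be 4.55 CPM. Ranked by level, E14.5 epithelium, E14.5 and E11.5 endothelium, E11.5 immune cells and E16.5 epithelium followed each other with overlapping intervals between neighbours, whereas E16.5 endothelium stood above them.

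Compared with mesenchyme of the same stage, 5 of the 9 members were at least 2-fold higher in epithelium at E14.5, where 9.62% of the 11205 genes with at least 50 UMIs were, and 2 were at least 2-fold lower, against 11.3%. Itgb4 was 45.6-fold (26.1 to 87.1), Lama5 40.8-fold (25.6 to 68.8), Lamb3 39.5-fold (23.0 to 73.6), Itga6 4.34-fold (3.97 to 4.75) and Lamc1 2.30-fold (1.96 to 2.70) higher. Lama1 and Lama4 were at 0.0607 and 0.0493 of the mesenchymal level. Lamb1, the beta chain of most trimers, was 1.54-fold higher and Itgb1 at 0.676 of the mesenchymal level, both short of 2-fold with intervals that left out 1.

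At E16.5, 4 members were at least 2-fold higher in epithelium (10.4% of 12509 genes) and 2 were lower (12%). Itgb4, Lama5 and Lamb3 were 45.8-, 45.1- and 39.3-fold higher, close to their E14.5 ratios. Itga6 was 13.4-fold higher (11.6 to 15.5), with 50.2 and 12.01 CPM in the mesenchyme of E14.5 and E16.5, and Lamc1 was 1.83-fold higher. The median log2 ratio was 1.20 and 0.87 over the members and 0.02 and 0.07 over all genes tested.

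**Figure D2:**
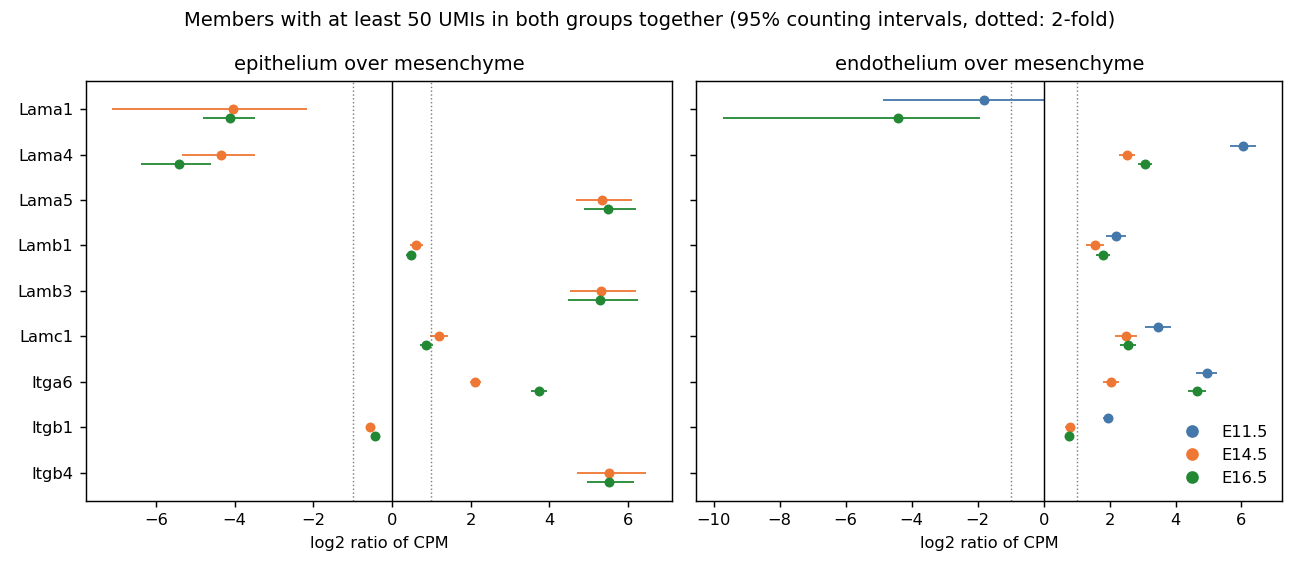
Log2 ratio of CPM, epithelium over mesenchyme and endothelium over mesenchyme, for each member with at least 50 UMIs in the compared groups, coloured by stage, with 95% counting intervals and dotted lines at 2-fold. Lama5, Lamb3 and Itgb4 lie between 5.30 and 5.52 in epithelium, and Lama1 in E14.5 endothelium is left out because it had 0 UMIs there.

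Among the alpha chains, endothelium carried mostly Lama4, with Lama5 at 2.94, 3.86 and 15.95 CPM at the successive stages. Lama4, the endothelial alpha chain, was at 171 CPM (141 to 205), 230 (198 to 267) and 255 (225 to 289) in endothelium of the successive stages. Mesenchyme had 2.59, 40.1 and 30.4 CPM, and epithelium 1.98 and 0.707 CPM at the later stages. Lama4 was thus above both other lineages at every stage measured. Itgb1, the common beta subunit of matrix receptors, was the most abundant member by UMIs, at 569, 634 and 886 CPM in endothelium.

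Against mesenchyme, 5 of 6 members with enough UMIs were at least 2-fold higher in endothelium at E11.5 (12.6% of 11915 genes), 4 of 6 at E14.5 (10.9% of 10541) and 4 of 6 at E16.5 (10.9% of 11286). Lower members numbered 1, 0 and 1, where 15.5%, 17.9% and 20.3% of genes were lower. Lama4 was 65.8-, 5.74- and 8.41-fold, Itga6 31.0-, 4.13- and 25.1-fold, Lamc1, the gamma chain of most trimers, 11.1-, 5.67- and 5.94-fold and Lamb1 4.60-, 2.96- and 3.50-fold higher. The E14.5 ratios of all 4 were the lowest of the stages. Itgb1 was 3.88-fold higher at E11.5 and 1.74- and 1.72-fold at the later stages. Lama1 had 2, 0 and 1 UMIs in endothelium, and its lower call at E11.5 rested on an interval of the ratio from 0.0344 to 1.04, which includes 1.

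The composition of the alpha chains differed between lineages. Of the UMIs of Lama1, Lama4 and Lama5 together, Lama5 made up 95.4% (exact Clopper-Pearson interval 92.3 to 97.5) of 285 in epithelium at E14.5 and 96.6% (95.2 to 97.6) of 961 at E16.5. Lama4 made up 96.7%, 98.4% and 93.8% in endothelium, where the remainder at E16.5 was mostly Lama5, 5.86% (3.39 to 9.34). In both lineages 1 chain thus made up over 90% of the UMIs of these 3.

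In mesenchyme the balance of these 3 chains differed between stages. Lama1, which is found in the earliest embryonic basement membranes, made up 74.8% (71.0 to 78.4) of 564 alpha chain UMIs at E11.5, 12.6% (10.3 to 15.1) of 749 at E14.5 and 40.3% (37.2 to 43.6) of 917 at E16.5. Lama4 made up 18.8%, 84.9% and 57.4%. The intervals of the stages did not overlap for either chain. These shares leave out Lama2, an alpha chain outside the 9 genes, which had 311, 497 and 586 UMIs in mesenchyme, and at E16.5 that was more than Lama4 with 526 and Lama1 with 370. Among beta chains, Lamb3 was 30.2% (26.6 to 33.9) and 24.1% (22.2 to 26.1) of Lamb1 and Lamb3 UMIs in epithelium and at most 1.65% in mesenchyme. The beta chain Lamb2, outside the 9 genes, is left out here. It had 34 and 118 UMIs in epithelium of E14.5 and E16.5, and 186, 132 and 211 in mesenchyme of the successive stages. Itgb4 was 13.2% (11.54 to 14.9) and 14.8% (13.97 to 15.6) of the UMIs of Itgb1 and Itgb4 together in epithelium. This leaves out other integrin beta subunits, of which Itgb5 had 360 and 894 UMIs in epithelium of E14.5 and E16.5.

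**Figure D3:**
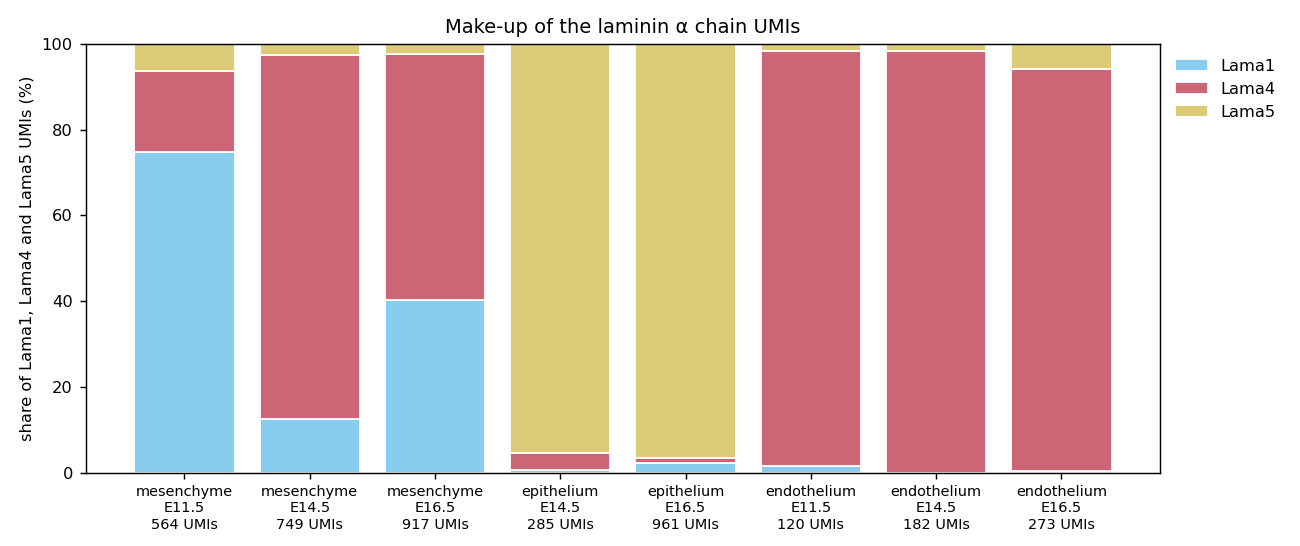
Share of Lama1, Lama4 and Lama5 in the UMIs of these 3 alpha chains (vertical, %) for each lineage and stage, with the number of UMIs under each bar. Epithelium is nearly all Lama5 and endothelium nearly all Lama4, while mesenchyme goes from 74.8% Lama1 at E11.5 to 84.9% Lama4 at E14.5.

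Stage comparisons set single matrices against each other, and the E14.5 matrix enters both mesenchymal comparisons. From E11.5 to E14.5, 4 of 7 members with enough UMIs were at least 2-fold higher in mesenchyme (9.97% of 12588 genes) and none was lower (11.4%). Lama4 went from 2.59 to 40.1 CPM, a ratio of 15.5 (12.6 to 19.2). Itga6 went from 5.97 to 50.2 CPM, a ratio of 8.40 (7.27 to 9.73). Itgb1 and Lamc1 were 2.49- and 2.47-fold higher, and Lamb1 1.79-fold. Lama1 was at 0.574 (0.454 to 0.719) of its E11.5 level. The median log2 ratio was 1.30 over the 7 members and -0.22 over all genes tested.

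From E14.5 to E16.5 the mesenchymal order changed again. Of 6 members, Lama1 was higher (7.73% of 12033 genes) and Itga6 lower (2.21%). Lama1 went from 5.93 to 21.4 CPM, a ratio of 3.60 (2.86 to 4.57), and Itga6 from 50.2 to 12.01 CPM, a ratio of 0.239 (0.204 to 0.279). Lama4 was at 0.757 of its E14.5 level, and Itgb1, Lamc1 and Lamb1 were 1.41-, 1.42- and 1.17-fold higher. At equal depth of 2000 UMIs, 1.07%, 6.36% and 2.05% of mesenchymal cells had an Itga6 UMI at the successive stages, the same order as the CPM. Cells with 3 or more Itga6 UMIs numbered 1, 60 and 7.

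**Figure D4:**
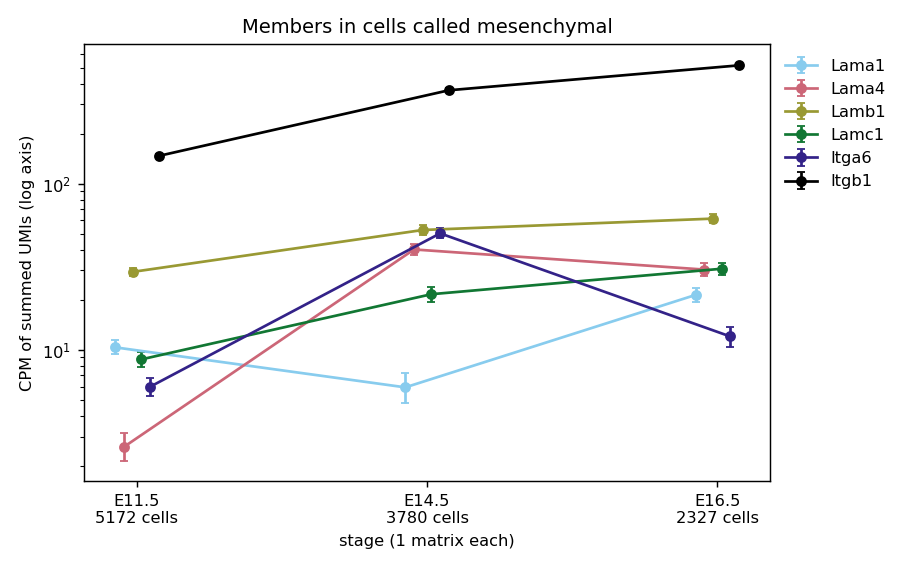
CPM (log axis) of 6 members in cells called mesenchymal of E11.5, E14.5 and E16.5, with 95% Poisson intervals and the number of cells under each stage. Itga6 peaks at E14.5 at 50.2 CPM, where Lama1 has its lowest value of 5.93 CPM.

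In epithelium no member changed by 2-fold from E14.5 to E16.5, of 7 with enough UMIs, where 7.23% of 11356 genes were higher and 2.19% lower. Itgb4 was 1.76-fold (1.52 to 2.06) and Itgb1 1.55-fold (1.46 to 1.64) higher. Itga6 was at 0.738 (0.689 to 0.790) and Lamb3 at 0.781 (0.659 to 0.928) of the E14.5 level. The ratios of Itgb4 and Itga6, the partners of the hemidesmosomal integrin, thus lay on opposite sides of 1. Lama5, Lamb1 and Lamc1 were at 1.12, 1.06 and 1.13 times their E14.5 level, with intervals that included 1. Lama1 and Lama4 were at or below 2 CPM at both stages.

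The 10 epithelial cells of E11.5 had 9 UMIs of Lama5 (67.8 CPM, 31.0 to 129), 11 of Itga6, 27 of Itgb1, 8 of Lamb1 and 1 each of Lamb3 and Lamc1. Itgb4 and Lama4 had 0 UMIs there, where 3 counts would be 22.6 CPM. In endothelium none of the 5 members with enough UMIs changed by 2-fold between successive stages, in comparisons chosen after the values had been seen. There 2.57% and 4.5% of 3931 genes were higher and lower from E11.5 to E14.5, and 1.97% and 0.673% of 4457 from E14.5 to E16.5, when Lamb1, Lamc1, Itga6 and Itgb1 had ratios of 1.38, 1.49, 1.45 and 1.40. Lama5, with 3 and 16 UMIs at E14.5 and E16.5, was under the count minimum, and its ratio was 4.13 (1.18 to 22.1).

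Within the mesenchyme of E14.5, Itga6 was unevenly spread. It was at 24.0 CPM in cells with a UMI of Postn, a matrix gene of the dental follicle and periosteum, and at 72.5 CPM in cells without, a ratio of 0.331 (0.278 to 0.392). It was the 1 member of 6 at or below 1/2 (1.31% of 10321 genes) and none was at or above 2 (4.64%). It was at 14.01 against 53.2 CPM in cells with and without Sox9, a chondrogenic factor, a ratio of 0.263 (0.153 to 0.425, with 4.45% of genes lower and 4.04% higher). It was at 68.7 against 34.1 CPM in cells with and without the proliferation marker Mki67, a ratio of 2.02 (1.74 to 2.34, with 2.73% higher and 2.78% lower). Thinned to 2000 UMIs, the shares of cells with Itga6 kept these orders, at 3.43% against 9.35% for Postn, 1.42% against 6.81% for Sox9 and 8.81% against 4.88% for Mki67. Barx1, a factor of molar and proximal mesenchyme, was also a marker used to call mesenchyme. The 53 cells with Barx1 stood against 3727 without and held 1 of the 795 Itga6 UMIs. The ratio of Itga6 was 0.0961 with a wide interval (0.00243 to 0.537). Lamb1 had a ratio of 2.26 from 24 UMIs in these cells (12% of genes higher, 6.14% lower). Its thinned shares, 8.70% with and 9.66% without Barx1, went the other way, and no order was read. Runx2, an osteogenic factor, moved no member past 2-fold (0.358% higher, 1.04% lower).

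At E11.5 no member passed 2-fold in any of these divisions. The shares of all 11793 genes higher and lower were 0.348% and 1.39% for Runx2, 0.899% and 1.05% for Barx1, 0.475% and 1.33% for Postn, 0.568% and 0.738% for Sox9 and 1.33% and 0.305% for Mki67. The Itga6 ratios there lay between 0.808 and 1.23, so the uneven spread of Itga6 seen at E14.5 was not seen at E11.5. Itga6 had 244 UMIs in this mesenchyme, whose median depth was 6277 UMIs, against 3612 at E14.5.

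The 527 mesenchymal cells with an Itga6 UMI at E14.5, a division chosen after the values had been seen, had 46.0 CPM of the 12 epithelial markers together, and the 3253 without had 58.6 CPM. Endothelial markers summed to 61.4 and 56.5 CPM, mural markers to 42.2 and 36.6 CPM and glial markers to 33.8 and 72.2 CPM. Neuronal markers summed to 36.1 and 137 CPM, and the mesenchymal markers themselves to 2310 and 2600 CPM. Of the sums of all marker lists, only the endothelial and mural ones were higher in cells with Itga6. The rule for calling mesenchyme limited markers of other lineages in both groups, and doublets were left in. Whether the Itga6 UMIs came from other cells was not tested. Cells with an Itga6 UMI were deeper, with a median of 6303 UMIs against 3374. No other member passed 2-fold (1.29% of genes higher, 8.01% lower). Genes with the largest ratio in them, among those with a UMI in at least 10% of the cells, were Gldn (4.95-fold), Dlx1as (4.37), Crym (3.83), Me3 (3.80), Emb (3.80), Egr3 (3.65), Fgf3 (3.50) and Dlx2 (3.42). Fgf3 is a ligand made by dental mesenchyme and Dlx2 a homeobox factor of the branchial arches. Itgb1, its partner, was at 351 and 368 CPM with and without Itga6.

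In mesenchymal cells of E16.5 divided by Postn, the ratios of Lama4 and Lama1 lay on opposite sides of 1. Lama4 was at 42.4 CPM in Postn+ and 20.2 CPM in Postn- cells, a ratio of 2.10 (1.75 to 2.52, with 4.04% of 11021 genes higher), whereas Lama1 was at 17.7 and 24.4 CPM, a ratio of 0.723 (0.582 to 0.896). Mki67+ cells had 24.1 CPM of Lama1 and 23.8 CPM of Lama4, and Mki67- cells had 19.4 and 35.2 CPM, with no member past 2-fold (4.06% higher, 3.5% lower). Itga6 was again lower in Postn+ cells, at 6.95 against 16.3 CPM, a ratio of 0.427 (0.308 to 0.585, with 1.56% lower). Neither Runx2 (1.93% and 0.553%) nor Sox9 (0.853% and 1.2%) moved a member past 2-fold, and in the 11 cells with Barx1 only Lama1 was called, from 1 UMI (8.57% and 8.77%). In cells divided by a Lama1 UMI, after the values had been seen, Lama4 was at 27.6 CPM with and 31.0 CPM without, a ratio of 0.890 (0.702 to 1.12), and no other member passed 2-fold (0.399% and 1.12%). Division by a Lama4 UMI likewise moved none (1.19% and 0.662% at E16.5, 0.31% and 0.678% at E14.5).

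Within the epithelium, cells with a UMI of Sox2, the marker of the incisor epithelial stem cells, were compared with cells without. At E14.5 no member of 7 differed by 2-fold (0.456% of 7894 genes higher, 0.811% lower), and Lama5, Lamb1, Lamb3, Lamc1 and Itgb4 had ratios between 0.944 and 1.08. Itga6 was lower in Sox2+ cells, at a ratio of 0.873 (0.775 to 0.982), as was Itgb1, at 0.817 (0.730 to 0.914). Thinned to 2000 UMIs, 24.2% of Sox2+ and 29.4% of Sox2- cells had an Itga6 UMI, and 32.5% and 40.9% an Itgb1 UMI. At E16.5 again no member differed by 2-fold (2.63% of 10895 genes higher, 4.34% lower). Yet Lamc1 was at 94.6 against 50.6 CPM, a ratio of 1.87 (1.59 to 2.18), Lamb3 at 45.2 against 24.6 CPM, 1.84 (1.46 to 2.31), and Lama5 at 71.3 against 52.2 CPM, 1.36 (1.14 to 1.62). Lamb1 had a ratio of 1.23 (1.06 to 1.42) and Itgb1 of 1.09 (1.01 to 1.17). Itgb4 was lower, at 45.2 against 69.1 CPM, a ratio of 0.655 (0.527 to 0.805), and so was Itga6, at 0.864 (0.765 to 0.973). Sox2+ cells were deeper (median 11193 against 7345 UMIs). At 2000 UMIs the shares of cells with Lamb1, Lamb3, Lamc1, Itga6, Itgb1 and Itgb4 kept these directions at E16.5. That of Lama5, 6.78% against 9.34%, did not, so no order was read for Lama5.

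Cells with Krt15, a keratin of basal layers that was also 1 of the 12 epithelial markers, differed more, and differently at the 2 stages. At E14.5 the 80 Krt15+ cells had 3 of 7 members at or below 1/2 (8.96% of genes). Itga6 was at 44.4 against 244 CPM, a ratio of 0.182 (0.124 to 0.258), Lamb3 at 13.9 against 38.0 CPM, 0.364 (0.172 to 0.686), and Lamb1 at 40.2 against 86.8 CPM, 0.463 (0.306 to 0.675). None was at least 2-fold higher (2.23%). At 2000 UMIs 8.97% of Krt15+ and 30.9% of Krt15- cells had an Itga6 UMI, and the depths were close (median 5394 and 5531 UMIs). The CPM and the thinned shares of Itgb4 and Lama5 pointed in opposite directions there, and no order was read for them.

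At E16.5 the 94 Krt15+ cells had 2 of 7 members at least 2-fold higher (6.96% of genes) and none lower (5.25%). Lamc1 was at 131 against 47.5 CPM, a ratio of 2.76 (2.37 to 3.21), and Lama5 at 108 against 48.5 CPM, 2.22 (1.88 to 2.60), with Lamb1 at 1.78 (1.55 to 2.04). Lama5, Lamb1 and Lamc1 are chains of a known trimer. Itga6 was at 159 and 161 CPM, without the gap seen at E14.5.

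Cells with Shh, a ligand made by the dental epithelium and its enamel knot, had no member past 2-fold at either stage. At E14.5 3.62% of genes were higher and 4.22% lower, and at E16.5 2.4% and 2.91%. Lamb3 was at 53.3 against 30.2 CPM at E14.5 and 36.7 against 21.3 CPM at E16.5, ratios of 1.76 and 1.72. Itga6 had ratios of 1.43 and 1.41, and Lamc1 was lower, at 0.554 and 0.665. Mki67+ cells had more Itga6 at both stages, 246 against 149 CPM and 172 against 132 CPM, ratios of 1.64 (1.43 to 1.90) and 1.31 (1.19 to 1.43), with no member past 2-fold (3.99% and 1.03% of genes at E14.5, 3.35% and 0.789% at E16.5). Krt14, a basal keratin, was also a marker used to call epithelium. Division by Krt14 moved no member past 2-fold (6.44% and 2.23% of genes at E14.5, 5.53% and 2.96% at E16.5).

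In epithelial cells divided by an Itgb4 UMI, a division chosen after the values had been seen, Lama5 was at 65.4 against 38.4 CPM at E14.5, a ratio of 1.70 (1.33 to 2.18), and the shares of cells with a Lama5 UMI after thinning, 15.9% against 7.33%, had the same order. At E16.5 it was at 59.7 against 47.0 CPM, 1.27 (1.11 to 1.46), while the thinned shares, 8.01% against 9.91%, went the other way, and no order was read. Itga6, the partner of Itgb4, had ratios of 1.28 and 1.25. No member passed 2-fold (0.291% and 0.241% of genes at E14.5, 0.679% and 0.138% at E16.5), and cells with Itgb4 were deeper (median 10506 against 4931 UMIs at E14.5 and 11308 against 6054.5 at E16.5). Of all epithelial cells, 21.5% and 20.7% had 3 or more Itga6 UMIs, with up to 42 and 52 in 1 cell.

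**Figure D5:**
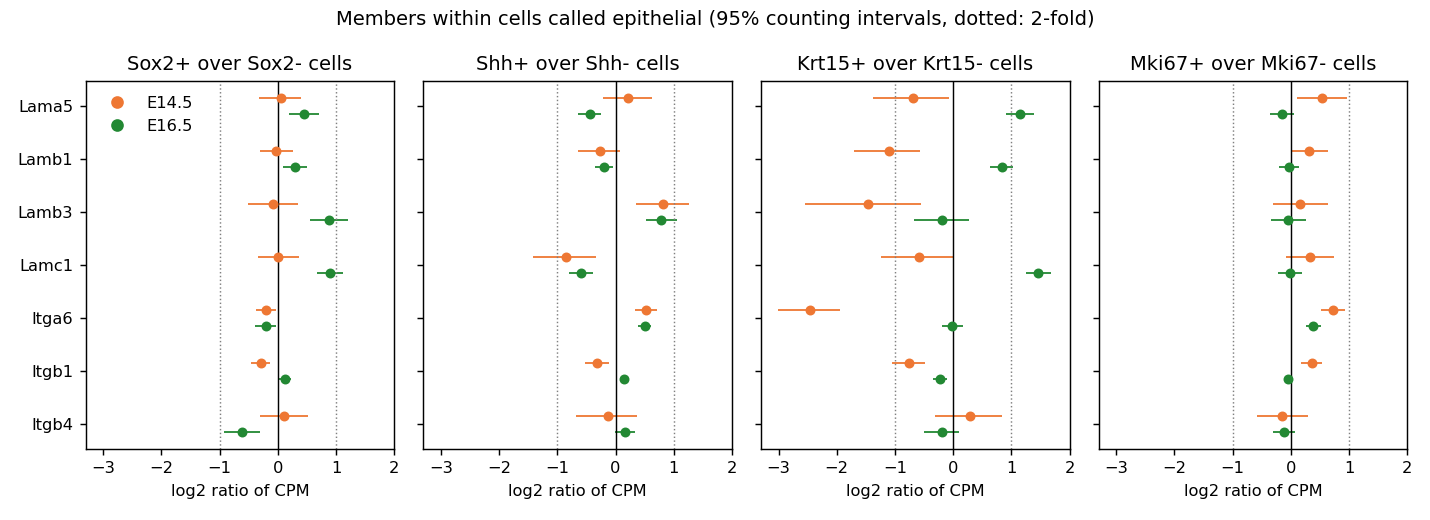
Log2 ratio of CPM between epithelial cells with and without a UMI of Sox2, Shh, Krt15 or Mki67 for 7 members, coloured by stage, with 95% counting intervals and dotted lines at 2-fold. In the Krt15 panel Itga6 lies far to the left at E14.5 only, and Lamc1 and Lama5 lie past 2-fold at E16.5.

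Of 38 other basement membrane genes, 16 of 33 with enough UMIs were at least 2-fold higher in epithelium than in mesenchyme at E14.5 and 8 were lower, where 9.62% and 11.3% of all genes were. At E16.5 18 of 36 were higher and 8 lower, against 10.4% and 12% of all genes. The median log2 ratio of the list was 0.79 and 0.83, beside 0.02 and 0.07 over all genes. The genes of epithelial anchoring made up 7 of these at each stage, all 7 the same: Col7a1, Col17a1, Frem2, Fras1, Dst, Cd151 and Fermt1, of 9 on the list. This class was named for its role in epithelia. The list was chosen with earlier results of these data known, so its counts are a description and no test. At E14.5 the largest ratios were those of Itga3 (72.7-fold, 18.3 against 0.252 CPM), Col17a1 (72.2-fold) and Fermt1 (52.0-fold), and at E16.5 those of Col17a1 (49.4-fold), Itga2 (47.5-fold) and Fermt1 (42.4-fold). Col17a1 is a hemidesmosomal collagen that binds Itgb4 and Fermt1 an activator of integrins. The smallest were Nid1 (0.0242 and 0.0216), Lama2 (0.0286 and 0.0139) and Nid2 (0.0525) or Lamc3 (0.0126). The nidogens, which link laminin to collagen networks, were low in epithelium but not particular to mesenchyme. Nid1 was at 228, 185 and 176 CPM in endothelium of the successive stages, against 34.3, 81.6 and 107 CPM in mesenchyme. Nid2 was at 92.7, 82.4 and 119.7 CPM in endothelium, against 10.9, 10.3 and 9.06 CPM in mesenchyme.

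In endothelium 13 of 26, 16 of 28 and 13 of 30 of these genes were at least 2-fold above mesenchyme at the successive stages, where 12.6%, 10.9% and 10.9% of all genes were. Below were 5, 9 and 10 of them, against 15.5%, 17.9% and 20.3% of all genes. The list medians were 1.07, 1.20 and 0.74 on the log2 scale, beside -0.07, -0.15 and -0.17 over all genes. Network and linker genes led, with 8 of 9, 8 of 9 and 7 of 10 higher. Col18a1 was 128- and 71.4-fold higher at E14.5 and E16.5, Hspg2, the basement membrane proteoglycan perlecan, 29.2- and 19.8-fold at E11.5 and E14.5, and Col4a1 22.3-fold at E16.5, at 2458 CPM. The integrin subunits Itga1 (177-fold at E11.5) and Itga2 (63.7- and 193-fold at the later stages) were also among the largest. Frem1 was among the smallest at every stage, at 0.123, 0.0426 and 0.0640.

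Across stages, 13 of 29 of these genes were higher in mesenchyme at E14.5 than at E11.5 and 1 was lower (9.97% and 11.4% of all genes), with a list median of 0.87 on the log2 scale beside -0.22 over all genes. Lamc3 went from 0.2203 to 14.7 CPM, Sparc from 52.4 to 319 CPM and Itga1 from 0.808 to 4.92 CPM, while Col18a1 was the 1 lower gene, at 0.128 of its E11.5 level. From E14.5 to E16.5 4 of 29 were higher and 1 was lower, beside 7.73% and 2.21% of all genes, and the list median was 0.31 beside 0.16. The largest and smallest ratios were those of the neighbouring collagen genes Col4a6 (12.1-fold) and Col4a5 (6.21-fold) and of Itga9 (0.343). In epithelium 7 of 31 were higher at E16.5 and none lower (7.23% and 2.19% of all genes), with a list median of 0.23 beside 0.16, led by Itga1 (5.57-fold), Fras1 (28.2 to 118 CPM) and Itgb6 (3.89-fold).

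Over the 11 called groups of at least 50 cells, the genes whose log2 level followed a member most closely were ranked by Pearson r. The groups share 3 libraries, so r is a description. Outside epithelium Lamb3 and Itgb4 did not pass 2.99 CPM in any of these groups, so their r mainly restates that they were concentrated in epithelium. Esrp1 and Trp63 were themselves used to call epithelium. Lamb3 was followed most closely by Trim29 (r = 0.995), Nkx2-3 (0.991) and the marker Esrp1 (0.990), and Itgb4 by Vwa2 (0.993), Cyp26a1 (0.990) and the marker Trp63 (0.990). Lama5 was followed by Susd4 (0.981), Dsc3 (0.979) and Bcam (0.978), the last itself a receptor of this chain. Outside epithelium Lama5 did not pass 15.95 CPM in these groups, so its r too largely restates its level in epithelium. Lama4 was followed by Cavin3 (0.978), Hecw2 (0.978) and Jcad (0.974), Lama1 by Dclk1, Scube1 and Pcolce (0.956 to 0.963), Lamb1 by Plekhg1, Bcl2 and Unc5b (0.973 to 0.981), Lamc1 by Efna1, Ica1 and Arpc5l (0.963 to 0.974) and Itgb1 by Rab12, Ntan1 and App (0.969 to 0.979). Itga6 had the weakest matches, Slc6a6 (0.957), Cdc42se1 (0.946) and Klk8 (0.912).

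Small groups carried some of the highest levels. The 38 glial cells of E14.5 had 294 CPM of Itga6 (219 to 387), 237 CPM of Lama4 (170 to 321), 202 CPM of Lamb1 and 583 CPM of Itgb1, close to endothelium of that stage, with no UMI of Lama5 or Lamb3. The 15 mural cells of E16.5 had 185 CPM of Lama4 (116 to 281) and 152 CPM of Itga6. Cells that met no lineage rule held Itgb4 at 16.1 and 44.6 CPM in 1341 cells of E14.5 and 581 of E16.5, between the epithelial and mesenchymal levels, at a median of 2436 and 4057 UMIs.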

How the data were processed

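Mouse single-cell 3' libraries (10x Genomics, v3 kit) of E11.5 mandibles and of E14.5 and E16.5 incisor buds, digested with Collagenase P, were aligned by the authors to mm10 with Cell Ranger 4.0.0. The authors deposited 1 matrix of raw UMI counts per stage, with 5719 to 8708 barcodes that carry no sample mark. Here cells were kept and called by marker counts as described, and UMIs were summed per stage and lineage (Python 3.11.15, numpy 2.4.6, scipy 1.17.1). Ratios carry exact conditional binomial intervals and shares exact Clopper-Pearson intervals at the 95% level. A gene was called at a ratio of at least 2 or at most 1/2 with at least 50 counts in both groups together, and a group with no counts was set to 3 counts, a bound that could not cross a ratio of 1. The ratio was tested on simulated Poisson counts, which hold no spread between cells or libraries, so that test covers counting error only. The members and lists were chosen with earlier results of these data known. Named genes were the members, the 3 largest and 3 smallest ratios among the other basement membrane genes, the 3 genes most like each member by log2(CPM + 10) among genes with at least 50 CPM in some group, and the dividing genes, and some of these are not reported here. Genes named for cells with an Itga6 UMI were chosen after their values were seen. Scrublet (scanpy 1.11.5) called 0 doublets by its own threshold, so it was taken not to have worked and doublets were left in. Alternatives changed the filters, the number of markers, depth, averaging, pseudocount and count minimum.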

Additional observations from a re-analysis of the deposited data

Results flagged for a closer look

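Itga6 moved in opposite directions between E14.5 and E16.5 in different lineages. Its ratio of E16.5 over E14.5 was 1.45 in endothelium (161 and 302 UMIs), 0.738 in epithelium and 0.239 in mesenchyme, and each 95% counting interval left out 1. The difference between lineages was not tested, because each stage was 1 sample.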

How the results depend on the processing

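No paired analysis was possible because the barcodes of a stage could not be assigned to its numbered samples, and no sample could be left out for the same reason. There were 34 member ratios past 2-fold between lineages and between stages. All 34 stayed past 2-fold with stricter or looser filters on cells, with 2 or 5 markers and with the mean of per-cell CPM. They also did without the top 5% of doublet scores, but Scrublet was taken not to have worked, so this cannot show the effect of doublets. Other count minimums leave a ratio as it is, so they could not move any of these. With cells thinned to 2000 UMIs, 28 of the 30 that could be computed stayed past 2-fold, and with 10 CPM added to both sides 29 of 34 did. None of these changed direction. Ratios past 2-fold in the divisions by a UMI of a gene were recomputed only as thinned shares, which went the other way for Lamb1 in Barx1+ mesenchyme of E14.5. Members lower in epithelium than in mesenchyme at E14.5 numbered 1 with thinning and 1 with 10 CPM added. Members lower in endothelium numbered 0 at E11.5 under both and 0 at E16.5 with thinning, where Lama1 had few UMIs. With 10 CPM added, 0 members were higher from E14.5 to E16.5 in mesenchyme (Lama1 had a ratio of 1.97). With the mean of per-cell CPM, 1 member (Lama1) was lower in mesenchyme from E11.5 to E14.5. A minimum of 20 counts or of 1 count gave 1 member higher and 1 lower in epithelium from E14.5 to E16.5, and 1 higher in Sox2+ cells at E16.5, as did the mean of per-cell CPM. The share of Lama5 among epithelial alpha chain UMIs was 98.4% and 95.1% at E14.5 and E16.5 with thinning, and that of Lama1 in mesenchyme 9.93% and 37.0% with the mean of per-cell CPM. The causes were not tested. The share of all genes past 2-fold ranged from 2.19% to 20.3% over the comparisons of lineages and of epithelial and mesenchymal stages, and from 0.352% to 7.80% with 10 CPM added, 5.74% to 15.3% with a minimum of 1 count and 1.18% to 18.1% with thinning. Counts of 0 to 3 UMIs, as for Lama1 and Itgb4 in endothelium, limit what can be said of levels below about 5 CPM there.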
